A study of Mus musculus with 18 samples.

Results

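The difference between the responses of 2 mouse cancer cell lines to sildenafil was measured across all genes. The lines were MC38 (colon adenocarcinoma) and 4T1 (mammary carcinoma), each grown as wild-type cells and given the solvent DMSO (control) or 100 µM sildenafil citrate for 24 hours. For each gene the log2 change in 4T1 (sildenafil over control) was subtracted from the log2 change in MC38, so that a negative response difference means less increase, or more decrease, in MC38. This contrast used 12 of the 18 libraries in the series, 3 per line and treatment. The other 6 libraries came from Lewis lung carcinoma cells (LLC) kept for 48 hours. They entered only the estimate of the spread, the scaling factors and the choice of genes tested. Per the labels, 4T1 was grown in RPMI 1640 and MC38 in DMEM, so cell line and medium cannot be told apart in any difference given here. Whether the libraries within a group stem from different cultures is not in the labels, so the p-values reflect library-to-library spread alone, and that spread may be technical.

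Sildenafil blocks phosphodiesterase 5 (PDE5), which breaks down the second messenger cGMP, and the title of the series names the PDE5 gene Pde5a together with NPC1, a lysosomal membrane protein that hands cholesterol on to the rest of the cell. When little cholesterol reaches the endoplasmic reticulum, SREBP2 is released to the nucleus and switches on the genes of cholesterol synthesis and uptake. The other systems described below are the type I interferon response, in which STAT2 and IRF9 help to switch on antiviral genes, the integrated stress response, in which ATF4 switches on genes of amino acid supply, and the MYC-driven building of ribosomes.

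Library totals ran from 41070026 to 61600675 expected counts in 4T1 and from 29438227 to 36417407 in MC38. The labelled origins were checked against marker genes. In 4T1 controls the epithelial genes Cdh1 and Krt18 averaged 426 and 817 counts-per-million units (CPM), against 0.565 and 0.451 CPM in MC38 controls. Epcam and Cldn7 averaged 55.4 and 20.1 CPM in 4T1 controls and had no counts in any MC38 library. Of 7 epithelial markers, 7 reached 1 CPM in 4T1 controls and 2 in MC38 controls. Krt8 and Cldn4 were present in MC38 controls at 2550 and 81.5 CPM, but Cdx2 and Vil1, which define colon epithelium, had no counts in MC38 controls. Of the other colon markers, Krt20 had no counts in MC38 controls either. Cdh17 averaged 4.65 CPM in MC38 controls and 0.762 CPM in 4T1 controls, and Lgals4 0.937 and 0.0463 CPM. Thus 1 of 5 colon markers reached 1 CPM in MC38 controls. Of 3 mammary basal markers, 1 reached it in 4T1 controls. Of 4 mesenchymal markers, 2 reached it in 4T1 controls and 3 in MC38 controls, where Zeb1 averaged 27.5 CPM against 0.224 CPM in 4T1. Protein-coding genes took 97.08% to 97.31% of the counts of a 4T1 library and 87.3% to 89.45% of an MC38 library. The part of this in the response differences was not tested. Gm26917, annotated as a long noncoding RNA, took 0.489% to 1.41% of the counts of an MC38 library and 0.0157% to 0.0285% of a 4T1 library. It averaged 156 CPM in control and 252 CPM in treated 4T1 cells, and 11721 and 5684 CPM in MC38 cells, without overlap in either line; neither change was called by the test introduced next (adjusted p = 0.142 and 0.0544, edgeR).

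Of 16040 genes tested, 5550 (34.6%) had a response difference with an adjusted p under 0.05 (edgeR quasi-likelihood test, Benjamini-Hochberg adjustment), which is what "called" means below. The difference was higher in MC38 for 2867 genes (17.9%) and lower for 2683 (16.7%). Among those of 2-fold or more, the balance was unequal, with 141 higher and 513 lower. The change itself was called for 8625 genes (53.8%) in 4T1 and for 4158 (25.9%) in MC38. The median absolute log2 response over all genes was 0.30 in 4T1 and 0.16 in MC38, and the response was the larger one in 4T1 for 4753 (85.6%) of the called differences. Depth also differed between the lines, and its part in these counts was not tested.

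The called differences were sorted by which line had changed. The commonest forms were a fall called in 4T1 with no called change in MC38 (1620 genes) and a rise called in 4T1 with none in MC38 (1554 genes). In a further 620 and 708 genes both lines fell or both rose, with the larger change in 4T1. Changes called in MC38 with none called in 4T1 were fewer, 261 rises and 184 falls. Both lines moved in the same direction with the larger change in MC38 for 61 rising and 12 falling genes. Opposite responses were called for 395 genes, of which 238 fell in 4T1 and rose in MC38 and 157 did the reverse. Across 9395 genes with at least 5 CPM in a group of each line, the log2 responses of the lines correlated with Pearson's r of 0.57 and Spearman's rho of 0.54. These are descriptions across genes, which are not independent replicates. Of the 2934 such genes called in both lines, 2583 changed in the same direction.

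**Figure D1:**
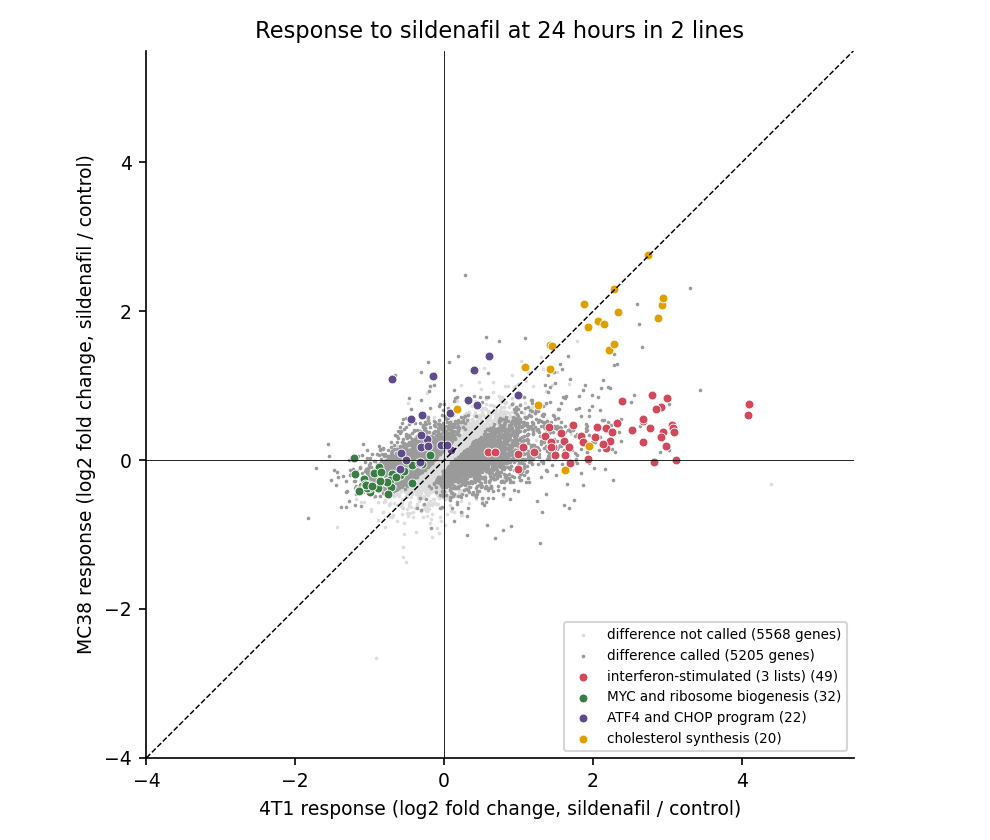
Log2 response to sildenafil in 4T1 (x axis) against MC38 (y axis) for the 10773 genes with at least 1 CPM in a group of each line, of which 3 lie beyond the axes. Interferon-stimulated genes extend far to the right at MC38 values near 0, and ribosome genes lie left of 0. Most cholesterol synthesis enzymes rise in both lines, with 13 of 20 below the dashed line of equal response.

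Gene lists are described over members with at least 1 CPM in a group of each line, since a fold change against an unexpressed gene has little meaning. Of 10773 such genes, 48.3% had a called difference (25.7% higher in MC38 and 22.6% lower), and their median difference was 0.01. In these genes the response was called in 4T1 for 69% (34.5% rose and 34.4% fell) and in MC38 for 35.8% (20.2% rose and 15.6% fell). A gene could pass this limit in 4T1 through its treated group alone, and listed genes below it are left out of the list counts. Of 841 listed genes that were tested, 114 were below it, of which 19 differences were called lower and 2 higher. Beside the interferon genes and Pde5a given further on, the lower ones were Zbp1, Aim2, H2-T24, Fas, Nos2, Npr1, Pde3b, Nr4a3, Tpm2, Col1a1, Col6a2, Elf3 and Tjp3, and the higher ones Nr1h3 and Pecam1. In each of them 1 line had under 1 CPM in both groups, so that the fold change in that line rests on few reads and is not given.

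The largest differences were in interferon-stimulated genes, which rose several fold in 4T1 and little or not at all in MC38. All 29 antiviral effectors at the limit rose in 4T1, 15 of them rose in MC38, and all 29 differences were called lower in MC38, with a median of -1.55 on the log2 scale. The same held for 8 of 8 members of the oligoadenylate synthetase list (median -1.75), whose products switch on the RNA-cutting enzyme RNase L. It held as well for 12 of 12 interferon-inducible GTPases (median -2.38), which attack the vacuoles of intracellular pathogens. In MC38, 3 of those 8 and 7 of those 12 rose and none fell. In bulk RNA, fewer cells with a given response and less RNA per cell cannot be told apart.

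Ifit3 (chr19:34583531-34588731 in mm10, plus strand), which encodes an antiviral protein that helps IFIT1 bind foreign RNA, stood at 3.91, 3.73 and 3.33 CPM in the 4T1 control libraries and at 66.2, 68.8 and 53.9 CPM in the treated ones. In MC38 the same gene stood at 9.22, 7.80 and 8.57 CPM in controls and at 15.3, 13.6 and 14.1 CPM after treatment. The groups did not overlap in either line, and the order of the lines turned: controls were higher in MC38 and treated cells higher in 4T1. Its log2 response was 4.1 in 4T1 and 0.75 in MC38, a difference of -3.35 ± 0.138 (SE; n = 3 libraries per group; adjusted p = 1.32e-13, edgeR).

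Gbp2 (chr3:142620602-142638008, plus strand), a guanylate-binding protein, stood at 10.3, 9.20 and 10.1 CPM in 4T1 controls and at 71.8, 71.9 and 64.8 CPM in treated 4T1 cells. In MC38 it stood at 18.2, 16.1 and 16.8 CPM in controls and at 16.1, 17.04 and 16.9 CPM after treatment. The MC38 groups overlapped, whereas every treated 4T1 library exceeded every control. The difference was -2.85 ± 0.0974 (adjusted p = 4.20e-15, edgeR). Ifi47, an immunity-related GTPase, showed the same form from a low start: 1.64, 1.40 and 0.892 CPM in 4T1 controls became 12.7, 11.97 and 9.66 CPM. In MC38, Ifi47 was already at 27.2, 27.0 and 25.9 CPM in controls and stayed at 28.0, 25.2 and 27.1 CPM. Thus MC38 had more Ifi47 RNA than treated 4T1 cells with or without sildenafil, and the difference in response was -3.11 ± 0.169 (adjusted p = 1.11e-11, edgeR). Among the treated 4T1 libraries, the third was the lowest for Ifit3, Gbp2, Ifi47 and Oas3, and it remained above every control.

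Oas3, which makes the 2-5 oligoadenylates that activate RNase L, rose from 8.65, 6.08 and 6.43 CPM to 57.7, 59.5 and 44.9 CPM in 4T1. In MC38 its control values of 4.34, 4.55 and 4.62 CPM and treated values of 5.97, 6.25 and 5.43 CPM did not overlap, but that change was not called (adjusted p = 0.0928). The difference was -2.56 ± 0.201 (adjusted p = 2.06e-08). Usp18, the protease that removes ISG15 from proteins and dampens interferon receptor signalling, differed by -2.59 ± 0.231 (adjusted p = 2.64e-07). Other large differences were in Gbp3 (-2.79), Cmpk2 (-2.64), Igtp (-2.43) and Gbp7 (-2.33). The best known effectors followed: Ifit1 differed by -2.20, Rsad2 (viperin) by -2.16 and Isg15 by -1.61. The smallest differences in the effector list were those of Ifitm2 (-0.57) and Isg20 (-0.48), both still called.

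Members below the 1 CPM limit in MC38 were Mx2, Mx1 and Oas2 among the effectors and synthetases, and Gbp10, Gbp5, Gbp8 and Iigp1 among the GTPases. Ifitm1 and Gvin1 were below it in 4T1. Of these 9, Mx2 (-2.97), Oas2 (-2.84), Iigp1 (-2.62), Gbp5 (-2.33) and Gbp10 (-4.64) were called lower in MC38, and none was called higher. Reads shared by close copies were divided between them by RSEM, so values of Ifit3 and Ifit3b, Tgtp1 and Tgtp2, the Oas1 genes and the Gbp genes are uncertain one against the other.

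**Figure D2:**
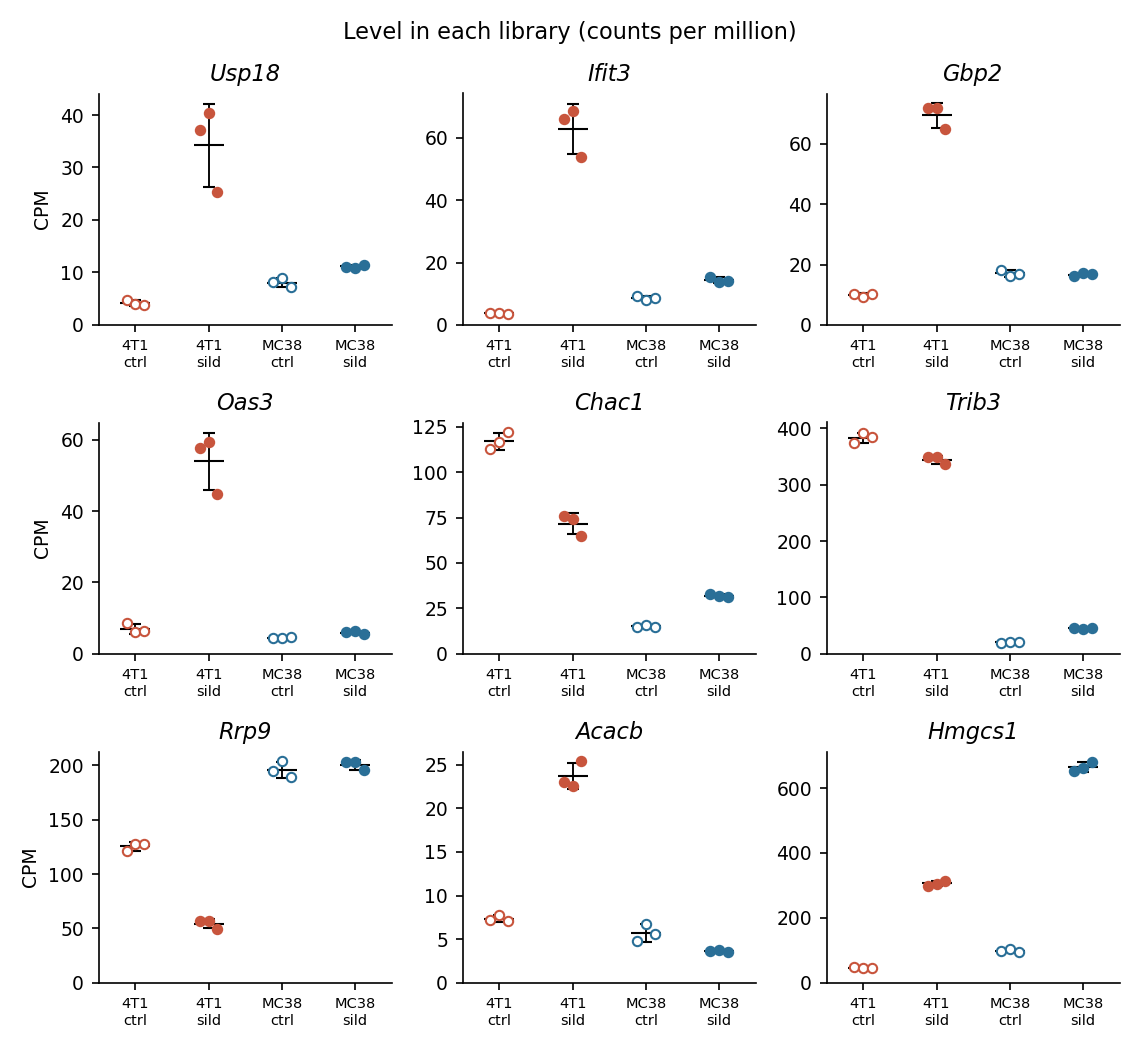
CPM in each library for 9 genes, with 3 libraries per group (open, control; filled, sildenafil), the mean as a bar and the SD as whiskers; every y axis starts at 0. Usp18, Ifit3, Gbp2 and Oas3 stand far above control in treated 4T1 cells and near control in MC38, Chac1 and Trib3 rise in MC38, Rrp9 falls in 4T1, Acacb moves in opposite directions and Hmgcs1 rises in both lines.

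Control levels did not place MC38 uniformly below 4T1. The control level was higher in MC38 for 14 of the 29 effectors, 2 of the 8 synthetase members and 8 of the 12 GTPases. After sildenafil it was higher in MC38 for 1, 0 and 2 of them. Treated 4T1 cells therefore exceeded treated MC38 cells for nearly all of these genes, whichever line had more before.

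**Figure D3:**
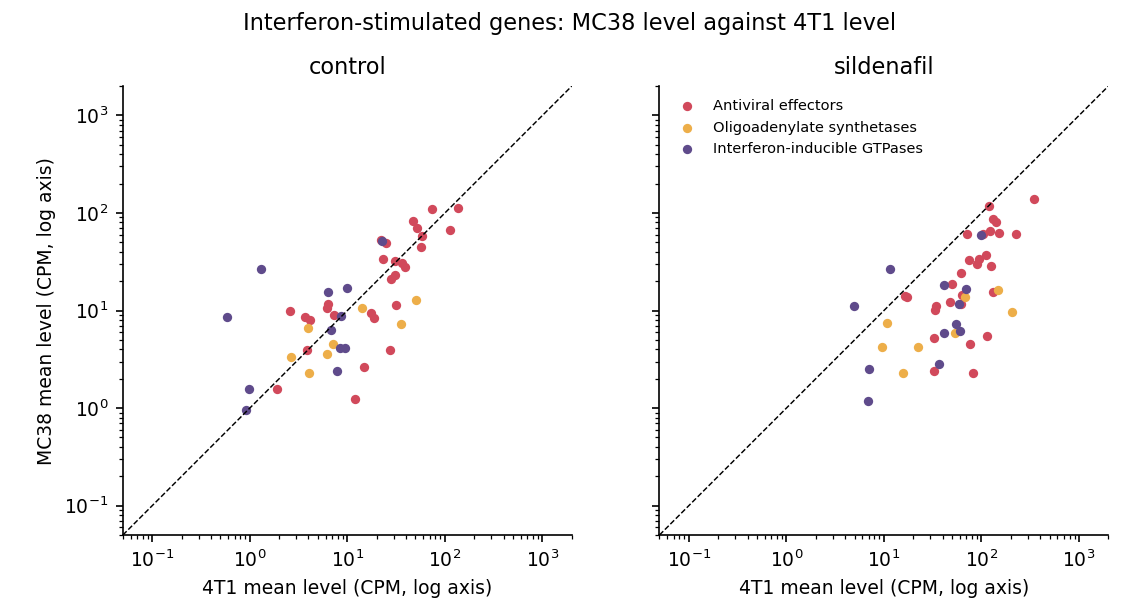
Mean CPM in 4T1 (x axis) against MC38 (y axis), both on log axes, for the 29 antiviral effectors, 8 oligoadenylate synthetase members and 12 interferon-inducible GTPases at the 1 CPM limit, in controls (left) and after sildenafil (right). The points straddle the dashed line of equal level in controls and all but 3 lie below it after treatment.

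Promoters of these genes were searched for the interferon-stimulated response element, the site bound by the complex that holds STAT2 and IRF9, in the 250 bases before each RefSeq gene start. The motif was TTTC, any 2 bases and TTTC again, or its reverse complement GAAA, any 2 bases and GAAA. It was present in 3.46% of the 27025 genes with a promoter sequence and in 3.14% of the 8386 such genes at the 1 CPM limit. It was found in 9 of 24 antiviral effectors (37.5%), 4 of 6 synthetase members (66.7%) and 8 of 9 GTPases (88.9%). The 4 windows of 60 bases below were taken only from listed genes that hold the motif, in order of the adjusted p of the difference. Windows that overlap an annotated exon were passed over. All are on the plus strand of GRCm38.p6 and read toward the gene, with the motif in capitals. They lie at chr19:34583382-34583441 (Ifit3), chr3:142530258-142530317 (Gbp7), chr11:58199496-58199555 (Igtp) and chr19:34640779-34640838 (Ifit1).
Ifit3: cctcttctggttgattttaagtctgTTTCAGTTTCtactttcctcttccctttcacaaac
Gbp7: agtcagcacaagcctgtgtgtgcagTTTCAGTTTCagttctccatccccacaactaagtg
Igtp: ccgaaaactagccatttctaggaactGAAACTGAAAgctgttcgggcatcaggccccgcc
Ifit1: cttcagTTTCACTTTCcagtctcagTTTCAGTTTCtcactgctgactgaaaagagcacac
Ifit1 holds the motif at 2 places in this window, and Igtp holds it on the opposite strand. A match describes the letters of the window and does not show that a factor was bound.

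The signalling genes that lie upstream differed less than their targets. Of 19 interferon receptors, STATs and IRFs at the limit, 14 differences were called lower in MC38 and 1 higher (median -0.54); 16 members rose in 4T1 and 9 in MC38. Irf7, itself interferon-induced and an amplifier of the response, went from 11.2, 9.48 and 8.99 CPM to 88.5, 88.1 and 63.0 CPM in 4T1. In MC38 it went from 1.78, 1.81 and 1.02 CPM to 2.64, 2.79 and 2.40 CPM. Both rises were called, and the difference was -2.26 ± 0.31 (adjusted p = 3.08e-05). Stat2 (-1.68) and Irf9 (-1.08), partners in the active complex, followed. The receptor chain Ifnar1 differed by only -0.28. Irf8 was the called exception in the other direction (0.40, adjusted p = 0.0373).

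Sensors of foreign nucleic acid showed a graded picture. Of 16 members at the limit, 15 differences were called lower in MC38 (median -0.55). The RNA helicases Dhx58 (-1.82), Ddx58, which encodes RIG-I (-1.52), and Ifih1, which encodes MDA5 (-1.51), led the list. Mavs, the shared adaptor of RIG-I and MDA5, did not pass the test (0.09). Genes of MHC class I presentation had 15 of 19 differences called lower and none higher (median -0.59); all 19 rose in 4T1 and 11 rose in MC38. H2-T23, a nonclassical MHC class I gene, rose from 57.2, 47.1 and 46.3 CPM to 243, 238 and 209 CPM in 4T1. In MC38 its values of 19.6, 20.1 and 19.5 CPM became 22.6, 23.4 and 22.6 CPM, a change that was not called (adjusted p = 0.0609), and the difference was -1.98 ± 0.105 (adjusted p = 3.61e-11).

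Immunoproteasome and peptide transport genes differed by -1.29 (Psmb9), -1.26 (Tap1) and -1.19 (Psmb8). Psmb10, the third immunoproteasome subunit, rose in 4T1 from 37.3, 37.6 and 37.6 CPM to 71.5, 72.9 and 63.8 CPM and fell in MC38 from 38.9, 42.2 and 37.8 CPM to 33.4, 34.4 and 31.3 CPM. The lines started at like levels and moved apart, by -1.15 ± 0.0775 (adjusted p = 1.51e-10). B2m, the light chain of all class I molecules, differed by -0.59 and the classical heavy chain H2-K1 by -0.19. Nlrc5, the transactivator of class I genes, rose in both lines, by 0.78 and 0.61, and the difference of -0.17 did not pass the test (adjusted p = 0.197).

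Of 20 chemokine, cytokine and NF-kB feedback genes, 13 differences were lower in MC38 and 3 higher (median -0.39). Cxcl1, a chemokine that draws neutrophils, rose in 4T1 from 35.4, 34.2 and 35.7 CPM to 62.1, 64.2 and 55.1 CPM. In MC38 it fell from 11.8, 14.1 and 12.7 CPM to 6.54, 7.86 and 5.88 CPM. The groups were apart in both lines, in opposite directions, and the difference was -1.72 ± 0.113 (adjusted p = 1.12e-10). Csf3, which encodes G-CSF, showed the same pattern, averaging 29.98 and 72.9 CPM in 4T1 and 1.32 and 0.606 CPM in MC38 (difference -2.39). Cxcl10, an interferon-induced T-cell chemokine, differed by -1.61. Csf1 (0.55), Rela (0.32) and Nfkb1 (0.15) were the members called higher.

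Markers of leukocytes were low throughout: Adgre1, Cd3e and Tyrobp had no counts in any of the 12 libraries. Their summed level over 10 markers was 34.7 to 35.9 CPM in 4T1 controls and 81.8 to 89.0 CPM after sildenafil, and 5.92 to 6.5 and 9.86 to 10.6 CPM in MC38. In 4T1 most of this sum came from Cd74, which averaged 25.5 and 46.7 CPM, and Cd68, a lysosomal protein gene that averaged 9.74 and 37.5 CPM. In MC38 most of it came from Cd68, at 2.93 and 4.68 CPM, and Csf1r, at 2.81 and 4.74 CPM. There Cd74 averaged 0.0674 and 0.0862 CPM. The sum over 8 fibroblast markers was 26.6 to 29.1 and 51.7 to 59.7 CPM in 4T1, and 100 to 108 and 91.3 to 95.1 CPM in MC38. In 4T1 only Pdgfra reached 1 CPM, and its averages of 27.5 and 53.9 CPM made up nearly all of the sum. In MC38 Col1a1 averaged 41.9 and 26.6 CPM, Dcn 30.8 and 28.9 CPM, Pdgfra 16.3 and 20 CPM, and Pdgfrb 13.9 and 17.7 CPM. The part of these levels in the interferon differences was not tested.

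Genes of the integrated stress response, the translation block and ATF4 program that cells use when amino acids run short or proteins misfold, were mostly higher in MC38 by the response difference. Of 22 ATF4 and CHOP program genes at the limit, 20 had a called difference, all higher in MC38 (median 0.50). In MC38, 17 rose and 1 fell; in 4T1, 5 rose and 12 fell, and 8 moved in called opposite directions. None of the 22 had a higher control level in MC38 than in 4T1, and 3 had a higher level after treatment, so the differences narrowed an existing gap between the lines.

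Chac1 (chr2:119351229-119354381, plus strand), which encodes a glutathione-degrading enzyme and is a well-known ATF4 target, stood at 113, 117 and 122 CPM in 4T1 controls and at 76.0, 74.1 and 65.0 CPM after sildenafil. In MC38 it stood at 14.8, 15.7 and 14.8 CPM and at 33.0, 31.7 and 31.4 CPM. The groups were apart in both lines and in opposite directions, with 4T1 above MC38 throughout. The responses were -0.71 and 1.08, a difference of 1.79 ± 0.103 (adjusted p = 5.98e-11, edgeR). Trib3, a pseudokinase induced by ATF4 and CHOP, stood at 374, 391 and 384 CPM in 4T1 controls and at 348, 348 and 336 CPM after treatment, a change that was not called (adjusted p = 0.274). In MC38 it rose from 19.98, 21.5 and 21.2 CPM to 46.0, 44.4 and 46.3 CPM, giving a difference of 1.28 ± 0.174 (adjusted p = 5.67e-05).

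The transcription factors themselves moved too. Atf4 (chromosome 15) stood at 478, 491 and 489 CPM in 4T1 controls and at 532, 528 and 478 CPM after treatment, so that its 4T1 groups overlapped. In MC38 it rose from 282, 289 and 281 CPM to 452, 435 and 436 CPM, and the difference was 0.56 ± 0.0589 (adjusted p = 1.20e-07). Ddit3, which encodes CHOP, rose in both lines, on average from 72.8 to 110 CPM and from 9.58 to 25.4 CPM, and the difference was 0.80. The stress genes Sesn2 (1.00), Ppp1r15a, which encodes the phosphatase subunit GADD34 (0.90), and Atf3 (0.81) were higher as well. Gadd45a, a DNA damage and stress gene on the p53 list, stood at 107, 110 and 109 CPM in 4T1 controls, 94.2, 92.9 and 93.2 CPM after treatment, 8.06, 7.37 and 7.38 CPM in MC38 controls and 19.5, 19.3 and 18.3 CPM after treatment. Its difference was 1.54 ± 0.0916. Ddit4, an inhibitor of mTORC1 signalling, nearly matched between the lines, with responses of 0.99 and 0.87 and a difference of -0.12 that did not pass the test (adjusted p = 0.264). Of the 26 listed genes, Vldlr, Stc2 and Gdf15 had no counts in any MC38 library and get no fold change, and Fgf21 was below 1 CPM in 4T1.

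Amino acid enzymes and transporters had 21 of 23 differences called higher and none lower (median 0.61). In contrast to the ATF4 list this came mostly from 4T1, where 20 fell and none rose; in MC38, 7 rose and 3 fell. Slc1a5, a glutamine transporter, fell from 189, 190 and 197 CPM to 118, 117 and 117 CPM in 4T1 and rose from 106, 107 and 106 CPM to 120, 123 and 116 CPM in MC38. Controls were therefore higher in 4T1, treated levels met, and the difference was 0.88 ± 0.0506 (adjusted p = 1.24e-11). Slc7a11, the cystine importer, fell from 79.4, 80.9 and 84.8 CPM to 71.3, 70.8 and 73.5 CPM in 4T1. In MC38 it rose from 14.6, 15.4 and 15.7 CPM to 24.5, 23.2 and 26.5 CPM, a difference of 0.89 ± 0.0734. Asparagine synthetase (Asns, 0.40) and the serine-glycine enzymes Shmt2 (0.62), Psat1 (0.34) and Phgdh (0.18) were also higher. Slc38a2 did not pass the test (-0.05).

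Endoplasmic reticulum chaperones and folding factors were less affected, with 8 of 22 differences higher and 1 lower (median 0.09); 17 rose in MC38, and in 4T1 9 rose and 4 fell. Hspa5, which encodes the chaperone BiP, fell in 4T1 from an average of 3508 to 2408 CPM and rose in MC38 from 1587 to 1857 CPM (difference 0.77 ± 0.0703, adjusted p = 1.41e-08). The stress sensor Atf6 (0.44) and Hyou1 (0.49) followed, whereas Dnajb9 (-0.10) and Calr (-0.02) did not pass the test. Edem1, which clears misfolded glycoproteins, was the member called lower (-0.25).

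The C/EBP-ATF response element, the site through which ATF4 acts with C/EBP partners, was searched as TTGCATCA or TGATGCAA in the same 250 bases. It was present in 0.918% of all 27025 genes and in 0.596% of the 8386 at the limit. It was found in 5 of 17 ATF4 and CHOP program genes (29.4%) and in 3 of 18 amino acid genes (16.7%). Windows of a target with opposite responses and of the cystine importer are shown, with the motif in capitals. The first lies at chr2:119351023-119351082 on the plus strand and the second at chr3:50443627-50443686 on the minus strand of GRCm38.p6, each read toward the gene.
Chac1: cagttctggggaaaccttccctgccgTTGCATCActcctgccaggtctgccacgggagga
Slc7a11: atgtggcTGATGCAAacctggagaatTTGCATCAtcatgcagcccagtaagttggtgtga
The Slc7a11 window holds the motif once on each strand.

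**Figure D4:**
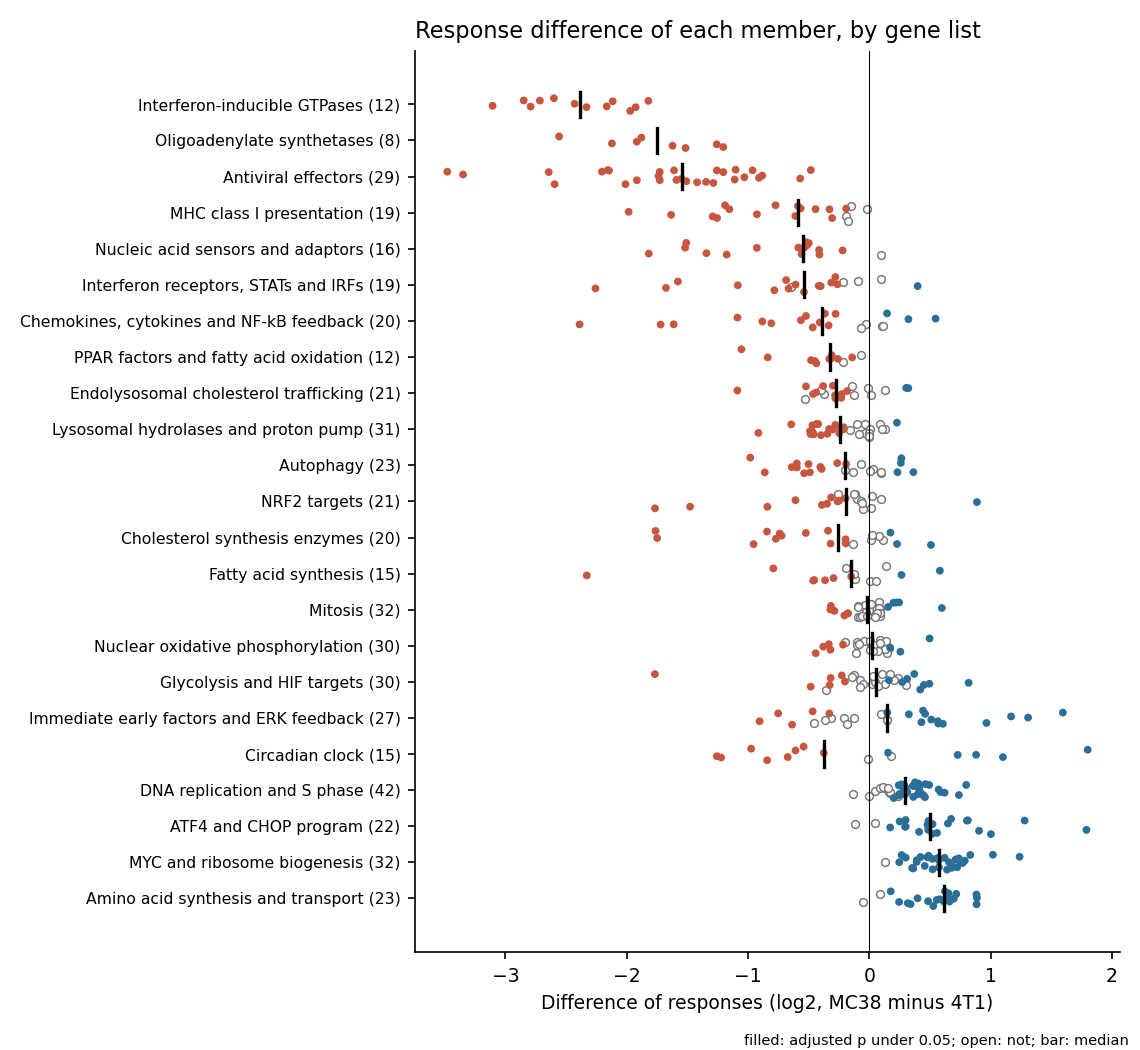
Response difference (log2, MC38 minus 4T1) of each member of 23 gene lists, with the number of members at the 1 CPM limit in parentheses; red and blue points are called lower and higher, open points are not called and bars are medians. Medians run from -2.38 for interferon-inducible GTPases to 0.61 for amino acid genes.

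Genes of ribosome building fell in both lines and fell further in 4T1. All 32 MYC and ribosome biogenesis genes at the limit fell in 4T1, 26 fell in MC38, and 31 of the 32 differences were called higher in MC38 (median 0.57). Myc (chr15:61985391-61990374, plus strand) fell from 631, 642 and 649 CPM to 279, 280 and 275 CPM in 4T1. In MC38 its values of 70.0, 74.1 and 74.8 CPM became 65.8, 67.5 and 59.5 CPM; these groups did not overlap, but the change was not called (adjusted p = 0.0732). The difference was 1.02 ± 0.0997 (adjusted p = 2.86e-07, edgeR), and 4T1 had more Myc RNA than MC38 before and after treatment. The related gene Mycn had no counts in 4T1 and fell in MC38 from an average of 27.1 to 20.2 CPM, so it has no difference to report.

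Rrp9, a protein of the U3 particle that processes ribosomal RNA, had the largest difference in the list. It fell from 121, 128 and 128 CPM to 56.7, 56.9 and 49.5 CPM in 4T1, and its MC38 values of 195, 204 and 189 CPM became 203, 203 and 196 CPM, with overlapping groups. The difference was 1.24 ± 0.0832 (adjusted p = 4.64e-10). Most of the others resembled Nop58, a core protein of box C/D particles, which fell by 1.08 in 4T1 and by 0.25 in MC38. Gar1 (0.79), Wdr12 (0.77), Nop2 (0.76) and Rrp12 (0.75) differed by similar amounts. Npm1, an abundant nucleolar chaperone, fell in both lines by 0.44 and 0.31, and the difference of 0.13 did not pass the test. The E-box CACGTG, which MYC binds, was found in 1 of the 25 members with a promoter sequence (4%), against 10.2% of genes at the limit.

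DNA replication genes gave a smaller difference of the same sign. Of 42 members, 31 differences were higher in MC38 and none lower (median 0.30); 36 fell in 4T1, and in MC38 2 fell and 1 rose. Cdc6, which loads the replicative helicase, fell from 35.4, 36.7 and 35.9 CPM to 22.1, 20.5 and 19.1 CPM in 4T1. In MC38 it was 120, 120 and 118 CPM in controls and 121, 118 and 119 CPM after treatment, and the difference was 0.80 ± 0.0651 (adjusted p = 2.80e-09). Rrm2 (0.62) and Pola1 (0.59), which make nucleotides or DNA, followed, and Lig1 did not pass the test (-0.13). Mitosis genes had no such balance: of 32, 5 differences were higher and 6 lower (median -0.02). Their exception was Anln, a contractile ring protein, at 0.60.

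Growth factor and ERK feedback genes were mixed, with 13 of 27 differences higher and 5 lower (median 0.15). Hbegf, a ligand of the EGF receptor, fell from 112, 108 and 114 CPM to 39.2, 40.3 and 35.1 CPM in 4T1. In MC38 its 51.3, 51.1 and 54.7 CPM became 53.4, 54.5 and 55.2 CPM, with overlapping groups, and the difference was 1.6 ± 0.0982 (adjusted p = 1.92e-10). Dusp5, an ERK phosphatase, fell in 4T1 and rose in MC38 (difference 1.31), and so did Etv5, an ERK-induced transcription factor (0.97). Fosl1 (1.17) and the receptor gene Epha2 (1.21) fell in 4T1 with no called change in MC38. Dusp6 and Spry2, further feedback genes, rose in MC38 without a called change in 4T1 (0.57 and 0.51). In the other direction stood Dusp1 (-0.91), Jund (-0.64) and Fosl2 (-0.47).

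Cholesterol synthesis enzymes rose strongly in both lines. All 20 enzymes at the limit rose in 4T1 and 18 rose in MC38, with median log2 responses of 2.01 and 1.67. Even so, 12 differences were called lower in MC38 and 3 higher (median -0.26). Hmgcs1 (chr13:119690379-119708260, plus strand), an early synthase of the pathway, rose from 47.6, 45.7 and 44.1 CPM to 299, 304 and 315 CPM in 4T1 and from 98.9, 103 and 93.7 CPM to 652, 660 and 681 CPM in MC38. Its responses of 2.74 and 2.75 differed by 0.01, with a 95% interval from -0.14 to 0.17. Nsdhl (0.02, from -0.16 to 0.20), Sqle (0.08, from -0.05 to 0.22), Pmvk (0.11, from -0.02 to 0.25) and Lss (-0.14, from -0.28 to 0.01) had similarly narrow intervals around 0.

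A called difference was found in 75% of the enzymes, against 48.3% of all genes at the limit, and these enzymes were spread along the pathway. Tm7sf2, a sterol reductase gene, rose in 4T1 from 5.55, 5.05 and 4.09 CPM to 14.96, 15.4 and 15.04 CPM. In MC38 it was 3.59, 5.16 and 3.26 CPM in controls and 3.58, 3.97 and 3.48 CPM after treatment, overlapping and not called, and the difference was -1.75 ± 0.198 (adjusted p = 3.22e-07). Of the enzymes that make isoprenoids, Fdps (-0.95), Mvd (-0.84) and Idi1 (-0.77) rose in both lines by more in 4T1. Ebp, a late isomerase, went the other way, from 25.7, 26.3 and 28.1 CPM to 29.995, 30.3 and 29.9 CPM in 4T1 and from 33.6, 33.1 and 31.3 CPM to 53.9, 51.3 and 51.8 CPM in MC38 (difference 0.51 ± 0.0777, adjusted p = 1.73e-05). Msmo1 (0.23) and Sc5d (0.17) were also called higher.

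**Figure D5:**
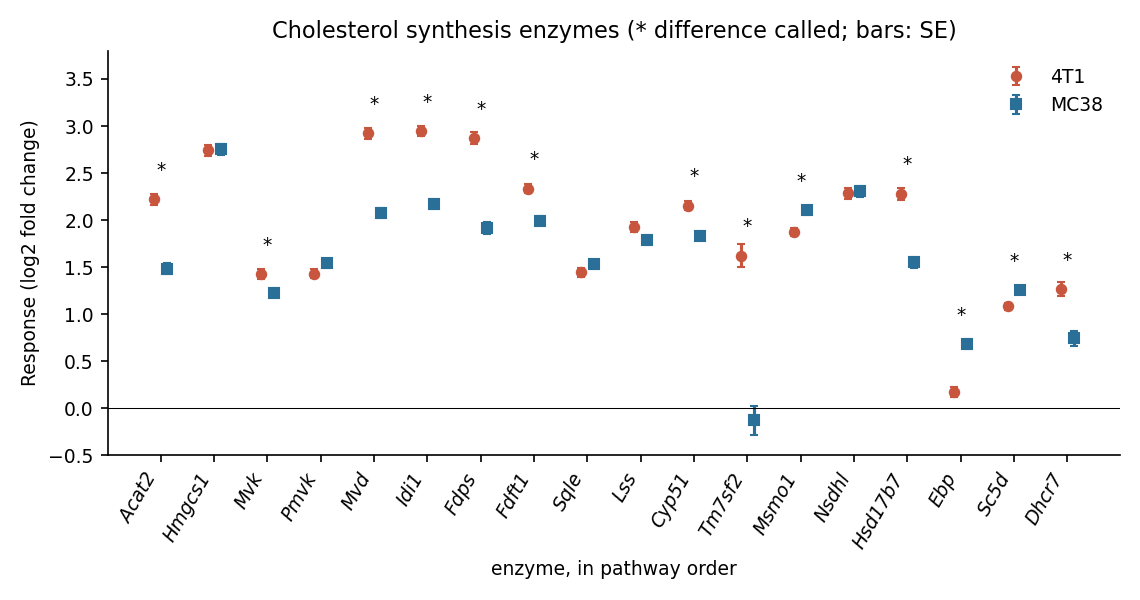
Log2 response of 18 of the 20 cholesterol synthesis enzymes in pathway order, with the SE, in 4T1 (circles) and MC38 (squares); a star marks a called difference. Hmgcs1, Nsdhl, Sqle, Pmvk and Lss carry no star, and Tm7sf2 shows the widest gap of those drawn.

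The sterol regulatory element core CACCCCAC, or its reverse complement GTGGGGTG, was found in 2 of 15 of these enzymes (13.3%), against 3.26% of genes at the limit and 2.98% of all. These are shown because one belongs to an enzyme with an equal response and the other to Acat2, an early enzyme that differed by -0.74. The Hmgcs1 window lies at chr13:119690189-119690248 on the plus strand and the Acat2 window at chr17:12960873-12960932 on the minus strand of GRCm38.p6.
Hmgcs1: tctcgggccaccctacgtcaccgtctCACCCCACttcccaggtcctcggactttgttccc
Acat2: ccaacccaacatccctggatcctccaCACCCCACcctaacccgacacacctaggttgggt

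Sterol sensing and uptake genes had 6 of 14 differences lower and 1 higher (median -0.26). Insig1, which holds SREBP in the endoplasmic reticulum and is its target, rose from 45.9, 44.1 and 44.6 CPM to 447, 436 and 449 CPM in 4T1 and from 140, 144 and 139 CPM to 705, 696 and 706 CPM in MC38. Both rises were large, and they differed by -0.995 ± 0.0553 (adjusted p = 7.60e-12). Srebf2 rose by 0.99 and 0.72 and its difference of -0.27 did not pass the test (adjusted p = 0.097). Srebf1 rose only in 4T1 by the test, and differed by -0.29 (adjusted p = 3.05e-04).

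The genes named in the title were then examined. Npc1 rose from 27.6, 26.1 and 28.7 CPM to 34.5, 34.8 and 40.3 CPM in 4T1 and from 59.2, 58.5 and 61.0 CPM to 79.6, 75.4 and 81.2 CPM in MC38. Its responses of 0.41 and 0.40 differed by -0.01, with an interval from -0.18 to 0.16. Its soluble partner Npc2 rose from 208, 209 and 208 CPM to 486, 481 and 455 CPM in 4T1 and from 132, 128 and 129 CPM to 209, 209 and 198 CPM in MC38. That difference was -0.52 ± 0.0551 (adjusted p = 1.19e-07).

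Pde5a, the gene of the drug's target, was scarce in 4T1, at 0.421, 0.331 and 0.517 CPM in controls and 0.838, 0.846 and 0.773 CPM after treatment. In MC38 it stood at 12.8, 13.3 and 13.4 CPM and at 16.9, 15.8 and 16.5 CPM. The groups were apart in both lines, and the difference was -0.66 ± 0.177 (adjusted p = 0.0103). Without the second 4T1 control library it was -0.50, with an adjusted p of 0.116. Among cGMP genes, Prkg2, a cGMP-dependent kinase, fell in 4T1 from an average of 191 to 143 CPM and rose in MC38 from 44.5 to 51.7 CPM (0.63 ± 0.0628, adjusted p = 4.55e-08). Npr3, a natriuretic peptide clearance receptor, was higher by 0.77, and Npr2, a guanylyl cyclase receptor, and the cGMP exporter Abcc5 were lower by -0.60 and -0.56. Of 20 listed cGMP genes 12 were tested and 7 reached the limit, of which 2 differences were higher and 3 lower; of 20 phosphodiesterases 14 were tested and 6 reached it, of which 1 was higher and 2 lower. Of the sterol transporters, Abca7 rose in both lines and less in MC38 (-0.62). The efflux transporters Abcg1 and Abca1 could not be compared: Abcg1 had no counts in any MC38 library, and Abca1, which fell in MC38 from 64.4, 62.4 and 72.2 CPM to 21.4, 19.5 and 21.7 CPM, was under 0.2 CPM in every 4T1 library.

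Endolysosomal cholesterol trafficking genes had 11 of 21 differences lower in MC38 and 2 higher (median -0.28), and lysosomal hydrolases and proton pump genes 18 of 31 lower and 1 higher (median -0.24). Most members rose: 15 of the 21 in each line, and 28 of the 31 in 4T1 and 26 in MC38. Lipa, the lysosomal acid lipase that frees cholesterol from its esters, rose from 13.2, 13.4 and 12.9 CPM to 37.1, 37.2 and 38.3 CPM in 4T1. In MC38 it rose from 43.1, 39.7 and 39.3 CPM to 53.3, 55.4 and 54.8 CPM, a difference of -1.09 ± 0.0721 (adjusted p = 1.26e-10). Gla (-0.91), Neu1 (-0.64) and Ctsb (-0.48), which digest glycolipids, sialic acids and proteins, also rose by more in 4T1. Among 23 autophagy genes 12 differences were lower and 4 higher, led by Map1lc3a (-0.98) and the initiating kinase Ulk1 (-0.86).

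Fatty acid synthesis contained the largest difference among genes with called opposite responses and at least 5 CPM in both lines. Acacb (chr5:114146535-114250761, plus strand), the mitochondrial acetyl-CoA carboxylase, rose in 4T1 from 7.19, 7.77 and 7.14 CPM to 23.03, 22.6 and 25.4 CPM. In MC38 it fell from 4.78, 6.76 and 5.61 CPM to 3.65, 3.79 and 3.54 CPM. No groups overlapped, and the difference was -2.33 ± 0.154 (adjusted p = 1.26e-10, edgeR). The rest of the list was closer, with 7 of 15 differences lower and 2 higher (median -0.15), and Fasn, fatty acid synthase, did not differ by the test (0.00). Acly, which makes cytosolic acetyl-CoA, rose by 0.59 in 4T1 and by 1.17 in MC38, a difference of 0.58. Fatty acid oxidation genes had 10 of 12 differences lower and none higher (median -0.32). Plin2, a lipid droplet coat protein, rose in 4T1 from 119, 119 and 122 CPM to 201, 200 and 209 CPM and fell in MC38 from 237, 240 and 240 CPM to 200, 195 and 189 CPM. Treated levels met from opposite sides, with a difference of -1.05 ± 0.0594 (adjusted p = 9.51e-12).

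Several of the most different genes lie outside these programs. Ly6a, which encodes the surface antigen Sca-1, stood at 1.16, 1.36 and 0.939 CPM in 4T1 controls and at 10.2, 9.04 and 6.70 CPM after treatment, whereas MC38 had 182, 174 and 168 CPM and then 191, 188 and 188 CPM. MC38 thus had far more of this RNA in every library and no called change, and the difference was -2.79 ± 0.181 (adjusted p = 7.88e-09). Dio2, the deiodinase that activates thyroid hormone, rose in 4T1 from 1.90, 2.04 and 1.81 CPM to 12.8, 12.97 and 21.4 CPM, the third treated library standing above the other two. In MC38 it stood at 15.4, 13.7 and 15.2 CPM before and 15.6, 15.6 and 17.1 CPM after treatment, which did not overlap, but that change was not called (adjusted p = 0.645). The response difference was -2.89 ± 0.254 (adjusted p = 2.36e-07). In the other direction, Ccdc137 fell in 4T1 from 73.8, 78.7 and 80.6 CPM to 28.4, 27.3 and 30.3 CPM and had no called change in MC38 (1.28 ± 0.0936). The noncoding host gene Snhg15 fell in both lines, from an average of 36.3 to 13.5 CPM in 4T1 and from 26.6 to 22.7 CPM in MC38 (1.20 ± 0.1). Zfp420, a zinc finger gene, fell in 4T1 only by the test (1.28 ± 0.161).

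Near-equal responses were sought as well. A change of at least 2-fold in the same direction in both lines, with a 95% interval of the difference within 0.35 of 0, was met by 14 genes. Those named include the cholesterol enzymes Hmgcs1, Sqle, Pmvk, Nsdhl and Lss, along with Mindy2, a deubiquitinase gene, and Elovl6, a fatty acid elongase. Mindy2 rose from 39.8, 38.5 and 37.6 CPM to 104.5, 103.5 and 111.7 CPM in 4T1 and from 9.53, 9.44 and 9.39 CPM to 25.8, 26.3 and 28.8 CPM in MC38, a difference of 0.05 with an interval from -0.10 to 0.20. Elovl6 rose by 1.79 and 1.6, and its difference of -0.19 (from -0.35 to -0.04) was just outside the threshold (adjusted p = 0.0510).

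The remaining lists are given by their counts, against 25.7% higher and 22.6% lower among all genes at the limit. Heat shock chaperones had 4 of 15 differences higher and 5 lower, nuclear oxidative phosphorylation genes 3 of 30 and 5, sphingolipid genes 4 of 20 and 4, and MiT/TFE lysosomal regulators 1 of 12 and 4. YAP and SRF targets had 5 of 19 higher and 5 lower, as did TGF-beta factors and targets with 5 of 19 and 5. BCL2 family genes had 4 of 15 and 5, and CREB targets 3 of 13 and 6. Of 12 mitochondrially encoded transcripts 1 was lower, and of 4 nuclear-retained noncoding RNAs none was called. LXR targets reached the limit in 6 of 12 listed genes (1 higher and 2 lower) and epithelial identity genes in 5 of 23 (0 and 2). No endothelial marker of 10 reached it, and those that were counted summed to 0.22 to 0.432 CPM in 4T1 and 1.44 to 2.45 CPM in MC38.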

How the data were processed

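Polyadenylated RNA was sequenced, and expected counts for each gene were deposited by the authors. The submitters' processing notes name mm10, RSEM 1.3.1, STAR 2.7.0f, cutadapt 1.18 and bcl2fastq 2.17. The strand setting and annotation release were not given in the sources used here. Genes that overlap, on either strand, may therefore share reads. Expected counts were rounded (4.30% to 6.91% of values per library were not whole). All 55450 identifiers matched GENCODE M21.

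The 18 libraries were fitted together in edgeR 4.0.16 (R 4.3.3) with TMM factors, filterByExpr, 6 group coefficients and 12 residual degrees of freedom, and tested by robust quasi-likelihood F tests. The interaction contrast and both single-line contrasts came from that fit, with Benjamini-Hochberg adjustment over 16040 genes and a threshold of 0.05. Each SE was taken as the log2 value over the root of F, and CPM were scaled with TMM totals. Without the adjustment 6633 differences had p under 0.05. Simulated differences of 1.3, 1.5, 2 and 3-fold were recovered in 56%, 78%, 88% and 92% of cases, and 4.27% of calls were wrong. In that simulation only 50 genes per fold were changed, in treated MC38 alone, and no gene responded in 4T1. Its rates may therefore not carry over to these data, where many genes changed in both lines.

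Gene lists (43) and the rule for naming genes were chosen with earlier results of these data known. The rule named up to 12 genes per direction with the largest difference (at least 5 CPM in both lines, groups apart in the line with the larger response, no predicted symbol), 6 per orientation with opposite responses, 8 that changed at least 2-fold alike with the interval of the difference within 0.35 of 0 (14 met this), 14 sterol, PDE5 and MYC genes, and up to 4 per list with the smallest adjusted p. Some genes that the rule named are not reported here. The 1 CPM limit for lists was added after the data were seen. List members given beyond this rule, such as Irf7, Psmb10, Ebp, Atf4 and Dbp, were chosen after their values were seen. Alternatives were DESeq2 1.42.0, limma-voom (limma 3.58.1), other scaling and filters, a replicate block and leaving out each library. Replicate libraries differed by more than counting noise in every group (chi-square per degree of freedom 2.87 to 13). Promoter sequences are from RefSeq on GRCm38.p6, matched by symbol.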

Additional observations from a re-analysis of the deposited data

Results flagged for a closer look

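The responses of the lines differed by the test of the difference itself for 2867 genes that were higher in MC38 and 2683 that were lower. Among the named genes with called responses in opposite directions, 6 fell in 4T1 and rose in MC38: Ciart (1.80), Chac1 (1.79), Ptpn22 (1.31), Nfil3 (1.10), Dynap (1.07) and Sesn2 (1.00), where each value is the log2 difference. The 6 that rose in 4T1 and fell in MC38 were Acacb (-2.33), Cxcl1 (-1.72), Zfp36l1 (-1.45), Fblim1 (-1.40), Wnt9a (-1.08) and Nrbp2 (-1.07). Ptpn22, a phosphatase gene best known from T cells, went from 28.7, 28.7 and 27.7 CPM to 21.5, 19.8 and 19.995 CPM in 4T1 and from 3.21, 4.45 and 4.66 CPM to 7.61, 6.61 and 7.68 CPM in MC38. Zfp36l1, an RNA decay factor, went from 30.1, 29.0 and 29.9 CPM to 43.0, 42.8 and 47.0 CPM in 4T1 and from 12.5, 13.1 and 16.2 CPM to 6.63, 7.22 and 8.82 CPM in MC38. For all 12 genes the control and treated libraries did not overlap in either line.

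The response of Gm26917, annotated as a noncoding RNA, also differed between the lines, by -1.73 ± 0.521 (adjusted p = 0.0203, edgeR). Its MC38 controls ranged from 9376 to 14803 CPM and its treated MC38 libraries from 5064 to 6203 CPM. With the deviation of its level from the group mean as a covariate, 3136 genes were called higher and 3058 lower. That covariate holds none of the shift between control and treated groups, so this fit cannot adjust for the shift. Treatment shared a fraction of 0.854 of the variance of the level itself in MC38 and 0.969 in 4T1. The part of the level in the differences of other genes was not tested.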

How the results depend on the processing

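Neither count of called differences over all genes, nor the count of calls in either line, moved by over 1.5 times under DESeq2, limma-voom, other scaling factors or library totals alone. The same held for other expression filters, unrounded counts, protein-coding genes only and the 12 libraries alone. It also held with the within-group deviation of Gm26917 as a covariate, and no called difference turned sign. Among the named differences that were not called, Hmgcs1 (-0.02 to 0.05) and Npc1 (-0.05 to 0.06) were among those that crossed 0. Testing against a 1.5-fold difference left 116 genes higher and 353 lower, so that 24.7% of the calls were higher instead of 51.7%. Leaving out 1 library at a time gave 2563 to 2690 higher and 2413 to 2626 lower, with 3333 to 4293 calls in MC38 and 7920 to 8633 in 4T1.

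Replicate numbers are shared between groups. Same-numbered libraries deviated together with correlations of -0.0151 to 0.144, and differently numbered ones with -0.116 to 0.0663. With 3 libraries per group, these values cannot decide whether the numbers pair the libraries. With the replicate block 2885 genes were higher and 2770 lower, with 4335 calls in MC38 and 8765 in 4T1.

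Of the 188 named genes, 92 changed their call under the 1.5-fold test, and Pde5a, Srebf2, Elovl6, Col1a1, Pecam1 and Tjp3 were among those that did so under another alternative. Over all tested members, 38 of the 43 lists had a count of called differences that moved by over 1.5 times under the 1.5-fold test. DNA replication genes went from 31 to 1, ATF4 and CHOP genes from 20 to 3, amino acid genes from 21 to 2 and ribosome genes from 31 to 5. The antiviral effector, oligoadenylate synthetase and interferon-inducible GTPase lists were not among those that moved. Called mitosis genes went from 11 to 7 and mitochondrially encoded transcripts from 1 to 8 without the expression filter, and the latter to 2 without the first 4T1 control. Called cGMP genes went from 7 to 4 without the second MC38 control or the third treated MC38 library. The cause of these moves was not tested.

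MC38 depth was lower, which limits what can be said of genes called in 4T1 alone. On the CPM scale 164 called differences (2.95%) have the opposite sign, and 345 rest on a line in which both groups were below 1 CPM.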

Other observations

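Circadian clock genes moved in both directions. Of 15 at the 1 CPM limit, 8 differences were lower in MC38 and 5 higher (median -0.38), and 4 genes moved in called opposite directions. The output factor Dbp rose from 5.79, 5.34 and 4.84 CPM to 22.6, 21.9 and 22.9 CPM in 4T1 and from 1.298, 1.77 and 1.67 CPM to 2.42, 2.89 and 3.23 CPM in MC38 (difference -1.22 ± 0.168, adjusted p = 4.38e-06, edgeR). Per3 (-1.26), Per1 (-0.97) and Nr1d1 (-0.84) were lower with it. Arntl, the core activator, fell in 4T1 and rose in MC38 (0.88), as did the repressors Nfil3 (1.10) and Ciart (1.80), and Cry1 fell in 4T1 with no called change in MC38 (0.73). All 4T1 and MC38 libraries are labelled 24 hours, and the time of day of collection is not stated in the labels.

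Of 21 NRF2 targets, 10 differences were lower and 1 higher (median -0.20). The lower ones were led by glutathione transferases: Gsta4 rose from 12.2, 12.2 and 12.2 CPM to 43.7, 40.8 and 39.1 CPM in 4T1 and was 20.7, 20.6 and 19.6 CPM before and 21.005, 18.6 and 20.5 CPM after treatment in MC38, a difference of -1.77 ± 0.0914. Gstm1 differed by -1.48. Nqo1, a quinone reductase, rose in 4T1 with no called change in MC38 (-0.84), and the differences of Gclc (0.02), Hmox1 (-0.05) and Txnrd1 (-0.10) did not pass the test.

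Glycolysis and HIF targets rose in both lines, 22 of 30 in 4T1 and 26 in MC38, with 8 differences higher and 6 lower (median 0.06). Vegfa averaged 94.1 and 103 CPM in 4T1 and 28.4 and 54.8 CPM in MC38 (0.82 ± 0.0742, adjusted p = 1.27e-08), while Aldoc rose only in 4T1 by the test (-1.77). Among p53 targets, 7 of 21 differences were higher and 4 lower. The shares in both lists were near those of all genes at the limit, 25.7% higher and 22.6% lower. Cdkn1a, the cell cycle inhibitor p21, rose by 0.36 in 4T1 and by 1.21 in MC38, a difference of 0.85. Trp53 itself fell in 4T1 from an average of 147 to 79.0 CPM, and its MC38 averages of 95.6 and 89.4 CPM did not differ by the test.

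Of 13 matrix and mesenchymal genes at the limit, 7 differences were lower and 4 higher, and 5 moved in called opposite directions. Thbs1, Col5a1, Timp2 and Vim rose in 4T1 and fell in MC38, with differences of -0.63, -0.65, -0.47 and -0.37. Col4a2, a basement membrane collagen, went the other way (0.44). The proapoptotic gene Bmf rose from an average of 3.15 to 16.2 CPM in 4T1 and did not pass the test in MC38 (2.24 and 2.93 CPM; difference -1.97 ± 0.257, adjusted p = 4.22e-06).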
